A study of Mus musculus with 46 samples.

Results

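The genes described here are 44 interferon-stimulated genes (ISGs), followed through sorted T-lineage cells from wild-type and LMO2 over-expressing mice. They were taken by gene symbol from a list of known ISGs, which was chosen with earlier results of these data known. Of them, 42 had an entry among the 19521 genes of the count table. Mx1 and Mx2, the remaining members of the list, were not analysed here. Type I interferons bind the receptor IFNAR, the kinases JAK1 and TYK2 then phosphorylate STAT proteins, STAT2 among them, which join IRF9 in the complex ISGF3, which binds interferon-stimulated response elements in the promoters of ISGs. The products of these genes sense viral nucleic acid, degrade or block viral RNA and protein, mark the membranes of intracellular pathogens and feed back on the signal. In the thymus, a low interferon signal is present without infection, and ISG expression is known as a feature of thymocytes late in their maturation.

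RNA sequencing covered 40 libraries in 14 groups. All mice had the strain label C57BL/6 and were kept under specific-pathogen-free conditions, and their age was not given in the labels. Wild-type mice and mice whose genotype is labelled hCD2-LMO2 knock-in, and which the series title calls transgenic, were compared at the same stages. LMO2 is a bridging protein of haematopoietic transcription factor complexes, and human CD2 control elements direct expression to the T lineage. Each genotype gave 3 libraries of DN3, DN, DP, CD4SP and CD8SP thymocytes, which are double-negative, double-positive and single-positive for the coreceptors CD4 and CD8. The earliest stage, DN1, had 1 wild-type and 3 hCD2-LMO2 libraries. Splenic CD4 and CD8 T cells came from hCD2-LMO2 mice only, in 3 libraries each. The labels number the replicates without saying that each is a separate mouse, so p-values measure the spread between these libraries. Levels are CPM, a gene's reads scaled to a common library total after TMM scaling, and library totals ran from 17211426 to 28842773 reads.

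Lmo2 itself was read first as a check of the genotype. In DN3 cells it was at 0.211 to 0.287 CPM in the wild-type libraries and at 19.1 to 25.4 CPM in the hCD2-LMO2 libraries. One library went against its label: hCD2-LMO2 DP library 3 had 0.395 CPM of Lmo2, against 78.8 and 70 CPM in the others of its group. Several sorted populations also differed from their labels in coreceptor and stage markers. In hCD2-LMO2 CD4SP cells, library 1 had 190 CPM of Cd4 and library 2 had 3093 CPM of Cd8a, against 1379 to 1897 CPM of Cd4 and 43.5 to 148 CPM of Cd8a in wild-type CD4SP cells. In hCD2-LMO2 CD4SP library 3, 5 markers of DP cells summed to 3470 CPM, against 179 to 624 CPM in the wild type. Its 5 NK cell genes summed to 271 CPM, against 28.2 to 36.9 CPM in the wild type. CD8SP library 3 held 855 CPM of Cd4 in the wild type and 1408 CPM in hCD2-LMO2, where the other CD8SP libraries had 31.3 to 164 CPM. Splenic CD8 library 1 had 435 CPM of Cd8a, against 1507 to 1519 CPM in the other splenic CD8 libraries. In counts over all genes, splenic CD8 library 1, splenic CD4 library 3, wild-type DP library 1 and wild-type DN library 3 also lay far from the others of their groups. For many comparisons, counts of called members are also given with some of these libraries left out. A range over the fits that each leave out 1 library is given at the end.

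Promoter sequence is shown first for 9 members that differ below in their developmental pattern or in their response to genotype. RefSeq sequences (GRCm38.p6) from 250 bases before to 50 bases after the transcript start were matched to 33 of the 42 genes. The core of the interferon-stimulated response element, GAAANNGAAA, was searched on both strands, and 17 of the 33 held it (51.5%), against 1079 of 27025 genes with a promoter in the same table (3.99%). With 2 further bases, as GAAANNGAAACT, it was found in 8 of 33 members (24.2%) and in 82 of all genes (0.303%). The STAT element TTCNNNGAA, which reads the same on both strands, was found in 9 of 33 (27.3%) and in 9.55% of all promoters. Bases could belong to both motifs, and 5 members held both, 12 the response element alone, 4 the STAT element alone and 12 neither. The stretches below run 5′ to 3′ on each gene's own strand, with matches to the response element in capitals; a run that starts with TTTC is a match on the other strand.
The stretch of Ifit1 lies at chr19:34640745-34640853 on the plus strand, that of Isg15 at chr4:156200835-156200936 on the minus strand and that of Bst2 at chr8:71537547-71537642 on the minus strand.
The stretch of Oas3 lies at chr5:120777685-120777774 on the minus strand, that of Rsad2 at chr12:26456523-26456612 on the minus strand and that of Stat2 at chr10:128270248-128270325 on the plus strand.
The stretch of Irgm1 lies at chr11:48871421-48871490 on the minus strand, that of Igtp at chr11:58199482-58199555 on the plus strand and that of Irgm2 at chr11:58214873-58214962 on the plus strand.
Ifit1: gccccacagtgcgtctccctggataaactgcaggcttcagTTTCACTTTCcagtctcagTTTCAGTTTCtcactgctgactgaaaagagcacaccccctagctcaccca
Isg15: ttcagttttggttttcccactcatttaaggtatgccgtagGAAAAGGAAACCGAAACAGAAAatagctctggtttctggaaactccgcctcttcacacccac
Bst2: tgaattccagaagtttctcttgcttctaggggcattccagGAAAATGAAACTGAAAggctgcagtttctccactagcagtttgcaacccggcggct
Oas3: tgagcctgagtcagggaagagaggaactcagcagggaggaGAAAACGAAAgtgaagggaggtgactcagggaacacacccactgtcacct
Rsad2: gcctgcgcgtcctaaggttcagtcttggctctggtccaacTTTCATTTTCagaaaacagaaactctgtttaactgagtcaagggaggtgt
Stat2: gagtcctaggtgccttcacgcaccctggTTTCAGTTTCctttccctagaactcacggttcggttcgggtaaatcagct
Irgm1: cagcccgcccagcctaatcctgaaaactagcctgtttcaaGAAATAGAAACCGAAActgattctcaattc
Igtp: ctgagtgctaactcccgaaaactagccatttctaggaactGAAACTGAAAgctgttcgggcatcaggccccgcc
Irgm2: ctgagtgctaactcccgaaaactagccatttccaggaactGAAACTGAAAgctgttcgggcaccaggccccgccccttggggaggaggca
In Isg15, Bst2 and Irgm1 the matches overlap into one longer run, and Ifit1 has a pair of separate ones. The Igtp and Irgm2 stretches agree at 72 of 74 compared bases.

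In wild-type thymocytes the ISGs fell from DN3 to DP cells and rose again in single-positive cells, most of all in CD4SP cells. WT CD4SP was the highest of the 5 wild-type groups with 3 libraries for 37 of 42 genes, and DP was the lowest for 32. The median over the 42 genes of log2(CPM + 0.5) was 4.68, 4.86 and 4.91 in the DN3 libraries and 4.01, 4.33 and 4.45 in the DP libraries. It was 6.23, 6.12 and 5.98 in the CD4SP libraries and 5.7, 5.89 and 5.37 in the CD8SP libraries. These medians put every single-positive library above every DP library, and CD4SP above CD8SP with no overlap. In sorted bulk samples, fewer cells that express a gene and less RNA per cell cannot be told apart.

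**Figure D1:**
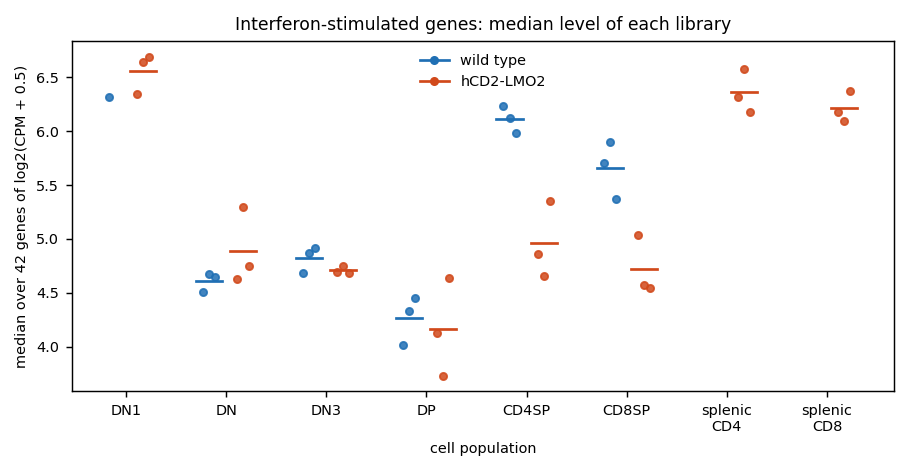
Median over 42 interferon-stimulated genes of log2(CPM + 0.5) in each library (points) and the group mean (bars), for wild-type and hCD2-LMO2 cells by population. Wild-type CD4SP libraries lie at 5.98 to 6.23, and hCD2-LMO2 CD4SP libraries at 4.66 to 5.35.

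From DN3 to DP, 29 of the 42 genes fell (69.0%) and 8 rose (19.0%) at an adjusted p under 0.05 in edgeR's quasi-likelihood test, where 31.4% of all genes tested fell and 28.6% rose. The members' median log2 fold change was -1.05. Without wild-type DP library 1, 31 members fell and 7 rose, where 36.2% of all genes fell and 32% rose. The OAS family, whose products make or resemble the enzymes of 2′-5′ oligoadenylate that activate RNase L, fell in 5 of 5 genes. Ifi44 was at 10.2, 9.64 and 12.9 CPM in DN3 cells and at 0.189, 0.278 and 0.395 CPM in DP cells (log2 -5.22, SE 0.29, adjusted p = 1.5e-06). Iigp1, an immunity-related GTPase that attacks the vacuoles of intracellular pathogens, went from 16.7 to 18.3 CPM down to 1.23 to 1.66 CPM (log2 -3.66, SE 0.19). For both genes the DN3 and DP libraries were far apart.

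The 8 genes that rose into the DP stage were Slfn5, Slfn2, Slfn1, Igtp, Irgm2, Ifit2, Samd9l and Stat2. Slfn2, a Schlafen protein known for holding T cells in quiescence, was at 26.7, 29.6 and 34.2 CPM in DN3 cells and at 157, 124 and 122 CPM in DP cells (log2 2.14, SE 0.17, edgeR adjusted p = 1.2e-05). Igtp and Irgm2, 2 immunity-related GTPases, rose by log2 1.63 (SE 0.28) and 1.23 (SE 0.25). Irgm1, a member of the same GTPase family, fell by 1.35 on the log2 scale (SE 0.17). Stat2, the STAT that is specific to type I and III interferon signalling, rose by log2 0.88 (SE 0.15). Igtp was at 65.8 to 73.8 CPM in DN3 and 157 to 324 CPM in DP cells, and the group ranges of Igtp, Irgm2 and Irgm1 did not overlap between the stages.

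From DP to CD4SP, 36 of 42 genes rose (85.7%) and 0 fell, where 23.4% of all genes rose and 20.5% fell, and the members' median log2 fold change was 2.35. Without wild-type DP library 1, 40 members rose, where 28.2% of all genes rose and 25.5% fell. Slfn1 was at 3.78, 3.69 and 2.65 CPM in DP cells and at 209, 202 and 152 CPM in CD4SP cells (log2 5.82, SE 0.23, edgeR adjusted p = 1.1e-05). Oas2 was at 1.42, 2.58 and 2.13 CPM in DP cells and at 124, 133 and 71.4 CPM in CD4SP cells (log2 5.75, SE 0.34). Both genes separated the stages without overlap. Iigp1 (log2 5.19, SE 0.36), Ifi44 (5.18, SE 0.43), Oasl2 (4.57, SE 0.42) and Ifit1 (4.56, SE 0.23) followed. All 5 sensors of nucleic acid rose, among them Ifih1, which encodes MDA5 (log2 2.85, SE 0.33), and Zbp1, a sensor of Z-form nucleic acid (2.53, SE 0.16). The 6 members that did not pass were Ifit2, Stat2, Igtp, Irgm2, Dtx3l and Psmb8.

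From DP to CD8SP, 32 of 42 genes rose (76.2%) and Stat2 alone fell (log2 -0.90, SE 0.17), where 20.8% of all genes rose and 16.9% fell. Without wild-type CD8SP library 3, 34 members rose and 1 fell, where 21.1% of all genes rose and 17% fell. Without wild-type DP library 1, 33 members rose and 1 fell, where 24.8% of all genes rose and 21.2% fell. Slfn1 again had the highest fold change (log2 4.69, SE 0.34), followed by Ifit1 (3.87, SE 0.35) and Oas2 (3.83, SE 0.44). Set directly against CD4SP cells, CD8SP cells had 23 members lower (54.8%) and 1 higher, where 20.6% of all genes were lower and 24.1% higher. Iigp1 was at 71.1, 49 and 31.2 CPM in CD4SP and at 14, 14.9 and 6.69 CPM in CD8SP cells (log2 -2.10, SE 0.38). Slfn5 was at 222, 183 and 161 CPM in CD4SP and at 64.5, 52.7 and 38 CPM in CD8SP cells (log2 -1.88, SE 0.21). The exception was Psmb8, a catalytic subunit of the immunoproteasome (log2 0.63, SE 0.14). Without WT CD4SP library 1 the count of members called fell from 24 to 14, where 13.1% of all genes were lower and 17% higher. Without library 2 it fell to 15, where 12.5% of all genes were lower and 16.7% higher. Without wild-type CD8SP library 3, 18 members were lower and 2 higher, where 20.9% of all genes were lower and 24.8% higher. Summed CPM of 5 DP markers, among them Rag1, Rag2 and Dntt, was 179 to 624 in wild-type CD4SP and 1358 to 4911 in CD8SP libraries, and the part of such cells in this difference was not tested.

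Levels per transcript length were compared between genes on the authors' deposited FPKM values. In wild-type CD4SP cells the authors' values averaged 191.7 FPKM for Slfn2, 185.7 for Psmb8, 114.2 for Zbp1 and 111.9 for Slfn1. At the other end were Rsad2, which encodes viperin, at 4.94 FPKM and Ifi44 at 3.96 FPKM.

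In hCD2-LMO2 CD4SP cells the ISGs were broadly lower than in the wild type. At an adjusted p under 0.05, 25 of 42 genes fell (59.5%) and 0 rose, where 11% of all genes tested fell and 15% rose. The members' median log2 fold change was -1.44, against 0.05 over all genes, and 40 of 42 fold changes were below 0. Calls came from nearly every role: 5 of 5 nucleic acid sensors, both ISG15 and its protease Usp18, 2 of 3 IFIT genes, 2 of 5 OAS genes, 2 of 4 immunity-related GTPases, 2 of 4 Schlafen genes, 2 of 3 PARP and DTX3L genes and 6 of 11 other effectors. The immunoproteasome subunits Psmb8 and Psmb9 did not pass and had a median log2 fold change of 0.24.

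The genes given by library here and for the other genotype comparisons were called members, mostly chosen because their groups did not overlap, so that separation is part of the choice. Among effectors, Iigp1 was at 71.1, 49 and 31.2 CPM in wild-type CD4SP cells and at 1.92, 0.523 and 2.51 CPM in hCD2-LMO2 cells. Its log2 fold change was -4.92 (SE 0.63, edgeR adjusted p = 0.00737). Ifi44 was at 13.7, 12 and 6.09 CPM in the wild type and at 0.457, 0.374 and 0.513 CPM in hCD2-LMO2 (log2 -4.53, SE 0.48, adjusted p = 0.00565). The lowest wild-type library was 12.4-fold above the highest hCD2-LMO2 library for Iigp1 and 11.9-fold for Ifi44. Ifit1, which binds viral RNA that lacks a mature cap, was at 69.6, 63.1 and 42.8 CPM against 8.63, 4.64 and 10.3 CPM (log2 -2.87, SE 0.36, adjusted p = 0.00727). Oas2 was at 124, 133 and 71.4 CPM against 10.9, 3.74 and 24.4 CPM (log2 -3.03, SE 0.67, adjusted p = 0.0218). Xaf1, an antagonist of the apoptosis inhibitor XIAP, was at 37.8, 36.4 and 23.4 CPM against 8.68, 6.65 and 8.43 CPM (log2 -2.01, SE 0.26). The groups did not overlap for any of these 5 genes.

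Sensors and signalling members moved the same way. Ifih1 was at 66.8, 60 and 29.6 CPM in the wild type and at 6.71, 9.27 and 10.3 CPM in hCD2-LMO2 CD4SP cells (log2 -2.55, SE 0.36). Zbp1 was at 191, 180 and 147 CPM against 51.6, 47.4 and 64.6 CPM (log2 -1.63, SE 0.21). Irf9, the DNA-binding subunit of ISGF3, was at 220, 223 and 197 CPM against 58.7, 63 and 94.2 CPM (log2 -1.53, SE 0.24, edgeR adjusted p = 0.00994). None of the 3 overlapped between genotypes. Irf7, the factor that amplifies the type I response, fell by 1.64 on the log2 scale (SE 0.40), while Stat2 was at 112 to 119 CPM in the wild type and at 52.2 to 106 CPM in hCD2-LMO2 and did not pass. Effectors of other kinds were called too. Isg15, a ubiquitin-like modifier, was at 41.1, 40.2 and 24.8 CPM against 16.5, 9.61 and 8.55 CPM (log2 -1.60, SE 0.32). Parp14, an ADP-ribosyltransferase, was at 267, 258 and 178 CPM against 42.3, 62.7 and 71.5 CPM (log2 -1.96, SE 0.28). Slfn5 was at 222, 183 and 161 CPM against 52.8, 46.3 and 90.7 CPM (log2 -1.54, SE 0.31). For all 3 the highest hCD2-LMO2 library was below the lowest wild-type one. Rtp4, a regulator of receptor transport with antiviral activity, was at 87.6, 75.6 and 60.6 CPM against 23.9, 14.7 and 20.6 CPM (log2 -1.89, SE 0.25), again with no overlap.

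**Figure D2:**
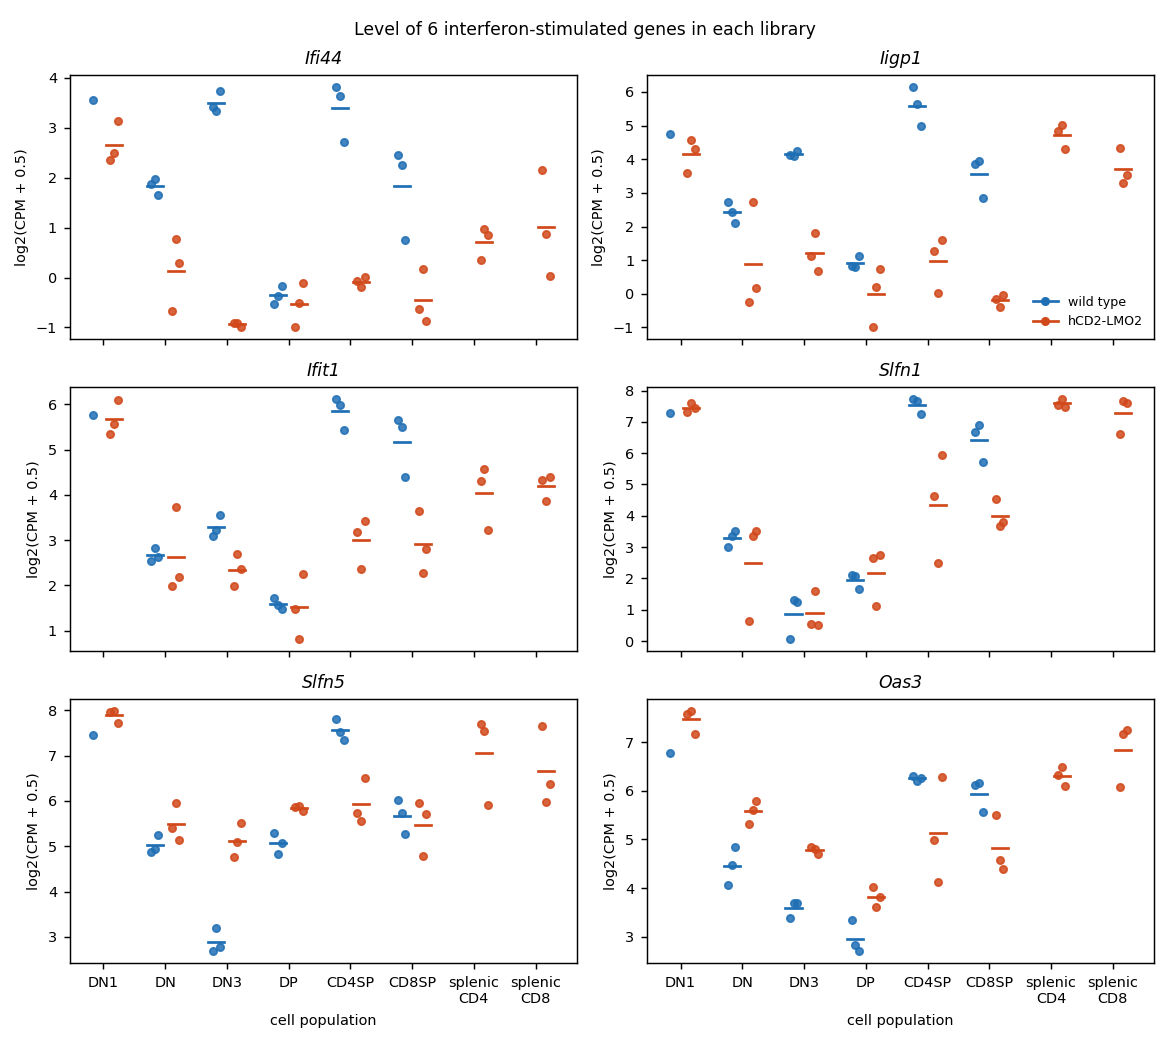
Level of Ifi44, Iigp1, Ifit1, Slfn1, Slfn5 and Oas3 as log2(CPM + 0.5) in each library (points) with group means (bars), for wild-type and hCD2-LMO2 cells by population. Ifi44 and Iigp1 are lower in hCD2-LMO2 DN3 and CD4SP cells, and Slfn5 is higher in hCD2-LMO2 DN3 cells (26.5 to 45.4 CPM against 5.91 to 8.69).

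The markers of the sorted cells moved with this difference, and their part in it was not tested. The 5 DP markers summed to 179 to 624 CPM in wild-type and 1660 to 9199 CPM in hCD2-LMO2 CD4SP libraries, and 2 of the 5 rose. The 5 markers of mature thymocytes, among them S1pr1, Klf2, Il7r and Ccr7, summed to 1650 to 1966 CPM and 437 to 1165 CPM, and Ccr7 alone of them passed (log2 -3.11, SE 0.80). B cell genes summed to 2.77 to 5.75 CPM and 21.1 to 63.3 CPM, macrophage and granulocyte genes to 14.6 to 25.1 and 33.3 to 147 CPM, and DN3 markers to 166 to 200 and 631 to 932 CPM. The 5 plasmacytoid dendritic cell genes summed to 894 to 1235 CPM in wild-type and 201 to 861 CPM in hCD2-LMO2 libraries, while their gene Siglech was at 1.57 to 5.21 and 0.785 to 33.3 CPM. NK cell genes summed to 28.2 to 36.9 CPM and 2.06 to 270.9 CPM, which overlap. Without hCD2-LMO2 library 2, whose DP markers summed to 9199 CPM, 28 members were lower, 24 of the 25 calls among them, and the median was -1.39, where 14.7% of all genes were lower. With libraries 1 and 3 both left out, so that library 2 alone remained, 32 members were lower and Psmb8 was higher, where 21.4% of all genes were lower and 21.5% higher, and the median was -1.84. Library 2 is then assumed to vary as the wild-type libraries do. Wild-type library 3, with 297 CPM of Rag1 against 48.8 and 62.6 CPM, had the lowest wild-type level of each of the 12 CD4SP genes given by library. Without it 23 members were called, where 5.07% of all genes were lower and 6.68% higher. Without WT library 1 no member was called, where 0.064% of all genes were lower and 0.24% higher. Without WT library 2 only Ifi44, Iigp1 and Ifit1 were called, where 0.152% of all genes were lower and 0.647% higher. In each fit without 1 library at least 38 of 42 fold changes stayed below 0, and the median stayed between -1.65 and -1.29.

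In hCD2-LMO2 CD8SP cells, 14 of 42 genes fell (33.3%) and 0 rose, where 2.36% of all genes tested fell and 2.09% rose. The median log2 fold change was -1.04, against 0.00 over all genes, and 41 of 42 fold changes were below 0. Iigp1 was at 14, 14.9 and 6.69 CPM in wild-type cells and at 0.403, 0.266 and 0.475 CPM in hCD2-LMO2 cells (log2 -4.93, SE 0.45, edgeR adjusted p = 0.00625). Oas1a, an oligoadenylate synthetase, was at 13, 13.4 and 7.35 CPM against 2.16, 1.42 and 2.14 CPM (log2 -2.55, SE 0.35, adjusted p = 0.0163). Slfn1, a Schlafen gene known for restraining thymocyte growth, was at 102, 118 and 51.8 CPM against 22.6, 12.3 and 13.4 CPM (log2 -2.48, SE 0.36, adjusted p = 0.0173). For these 3 genes every hCD2-LMO2 CD8SP library was below every wild-type one.

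Transcription factors of the pathway were among the genes that fell in CD8SP cells. Irf9 was at 101, 113 and 74.6 CPM in the wild type and at 45.2, 36.9 and 47.7 CPM in hCD2-LMO2 (log2 -1.15, SE 0.19). Irf7 was at 75.5, 94.8 and 47.4 CPM against 30.1, 23.6 and 19.6 CPM (log2 -1.57, SE 0.27). Dhx58, which encodes LGP2, a regulator of the RNA sensors, was at 21.4, 26.3 and 16.7 CPM against 7.41, 7.05 and 4.9 CPM (log2 -1.73, SE 0.24). These groups did not overlap. Ifit3 was at 22.3, 28.3 and 15.4 CPM against 7.85, 3.63 and 5.99 CPM (log2 -1.91, SE 0.34). Rtp4 was at 51.9, 60.1 and 35.6 CPM against 18.4, 9.84 and 16.2 CPM (log2 -1.73, SE 0.29). Isg15 was at 26.4, 24 and 15.1 CPM against 10.2, 6.51 and 10.1 CPM (log2 -1.28, SE 0.28). Here too no hCD2-LMO2 library reached the lowest wild-type one. Slfn5, which fell in CD4SP cells, was at 38 to 64.5 CPM in wild-type and 26.9 to 61.1 CPM in hCD2-LMO2 CD8SP cells, which overlap.

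Wild-type CD8SP library 3 had the lowest level of its group for each of the 9 CD8SP genes given by library, and it is the library with 855 CPM of Cd4 and 3026 CPM of Rag1. With library 3 of both genotypes left out, 19 members fell, 12 of the 14 calls among them, where 2.07% of all genes fell, and the median was -1.28. DESeq2 called 27 members and a fit of all 40 libraries 23, all lower, where 5.29% and 2.41% of all genes were lower. Without WT library 2 no member was called, where 0.0168% of all genes were lower and 0.0587% higher. Without WT library 1 only Iigp1 was called, where 0.0251% of all genes were lower and 0.125% higher. Without hCD2-LMO2 library 1 or 2 there were 9 and 8 calls, where 1.34% and 1.7% of all genes were lower. Mature thymocyte markers summed to 793 to 1178 CPM in wild-type and 452 to 567 CPM in hCD2-LMO2 CD8SP libraries, where S1pr1 (log2 -1.96, SE 0.42), Il7r (-1.73, SE 0.27) and Ccr7 (-2.37, SE 0.32) fell. DP markers summed to 1358 to 4911 and 2196 to 8599 CPM, which overlap, NK cell genes to 74.1 to 156 and 22.3 to 65.8 CPM, and DN3 markers to 213 to 233 and 431 to 619 CPM. The part of these lists in the ISG difference was not tested.

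Compared with the wild-type rise from DP to single-positive cells, the hCD2-LMO2 levels lay in between. Of 35 members that were at least 2-fold higher in wild-type CD4SP than DP cells, 32 had a mean hCD2-LMO2 CD4SP level between those of wild-type DP and CD4SP cells, at a median of 42.2% of the way up on the log2 scale. For CD8SP cells, 26 of 29 such members lay between, at a median of 38.7%. These shares use the wild-type single-positive libraries on both sides and are given as description only. Iigp1 and Ifi44 were the members with the lowest single-positive fold changes in hCD2-LMO2 CD4SP cells.

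The genotype effect in CD8SP cells was also tested against that in CD4SP cells. No member passed (0 of 42, where 0.032% of all genes did). By unadjusted p under 0.05 there were 3 members and 2067 of 12507 genes. DESeq2 called 0 members, where it called 1.54% of all genes higher and 3.93% lower. Without hCD2-LMO2 CD4SP library 2, or without library 3 of either CD8SP group, the count of members was again 0. Without hCD2-LMO2 CD4SP library 3 it was 1, where 1.22% of all genes were higher and 3.59% lower. The differences ran from -1.13 to 1.42 on the log2 scale with a median SE of 0.44 (0.25 to 2.09), so the libraries could not resolve a difference of about 1 log2 unit for many genes.

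In DN3 cells the members went both ways. There, 12 of 42 genes fell (28.6%) and 5 rose (11.9%), where 22.2% of all genes tested fell and 23.4% rose. The share that fell was near that of all genes and the share that rose was under it, so the counts do not set the ISGs apart at this stage. Their median log2 fold change was -0.20, against -0.03 over all genes. The individual fold changes spread from -8.63 to 2.32, with single genes of 1 family on opposite sides. With library size alone as scaling, 18 members were lower and 3 higher, where 31% of all genes were lower and 18.4% higher. Of all calls, 37.3% were then higher in place of 51.3%. A fit of all 40 libraries called 7 members, where 7.16% of all genes were lower and 10.7% higher.

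Ifi44 had the lowest fold change. It was at 10.2, 9.64 and 12.9 CPM in wild-type DN3 libraries and at 0.0342, 0.0345 and 0 CPM in hCD2-LMO2 libraries, which is 917 reads against 2. The wild-type level was 471-fold higher, with a 95% interval of 130 to 3894 for counting error only (edgeR adjusted p = 3.55e-06). Iigp1 was at 17.1, 16.7 and 18.3 CPM against 1.68, 3 and 1.11 CPM (log2 -3.17, SE 0.31, adjusted p = 0.000114). Oas1a was at 11.3, 10.2 and 16.8 CPM against 3.8, 5.27 and 3.27 CPM (log2 -1.63, SE 0.26, adjusted p = 0.00126). In all 3 genes the genotypes were well separated.

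Smaller decreases in DN3 cells included Ifit1, Bst2 and Psmb9. Ifit1 was at 8.06, 8.87 and 11.3 CPM against 3.49, 5.93 and 4.67 CPM (edgeR adjusted p = 0.00867). Bst2, which encodes tetherin and holds budding virions at the cell surface, was at 124, 101 and 130 CPM against 86.4, 61.6 and 66.6 CPM (log2 -0.72, SE 0.15). Psmb9, the partner subunit of Psmb8, was at 66, 52.4 and 68 CPM against 39, 38.7 and 44 CPM (log2 -0.61, SE 0.12). These were differences of under 2-fold or about 2-fold, again without overlap. Ifih1 (log2 -0.89), Dhx58 (-0.87), Slfn2 (-0.82), Zbp1 (-0.61), Ifi35 (-0.55) and Rtp4 (-0.48) completed the 12 genes that fell.

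Slfn5 led the 5 genes that rose in hCD2-LMO2 DN3 cells. It was at 5.91, 8.69 and 6.41 CPM in the wild type and at 26.5, 33.4 and 45.4 CPM in hCD2-LMO2 (log2 2.32, SE 0.23, edgeR adjusted p = 0.000113). Oas3, the oligoadenylate synthetase whose promoter stretch is printed above, was at 9.93, 12.4 and 12.5 CPM against 28.2, 27.3 and 25.6 CPM (log2 1.22, SE 0.14, adjusted p = 0.000209). Ddx58, which encodes RIG-I, was at 50.1, 59 and 56.7 CPM against 77.6, 72.1 and 82 CPM (log2 0.48, SE 0.11). All 3 were higher in every hCD2-LMO2 library. Dtx3l, a ubiquitin ligase that partners Parp9, was at 159, 161 and 120 CPM against 281, 179 and 187 CPM (log2 0.55, SE 0.19), and Trim30a rose by log2 0.40 (SE 0.10). Dtx3l and Parp9 overlap by 558 bases, and whether the counting used strand was not stated in the labels. Oas3 lies next to Oas2 and Oas1a on chromosome 5 and Slfn5 near Slfn8, Slfn2 and Slfn1 on chromosome 11, and in both clusters 1 neighbour rose while another fell. Members with close copies (Ifit3, Oas1a, Slfn1, Slfn8, Trim30a, Igtp and Irgm2) may share reads with them.

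**Figure D3:**
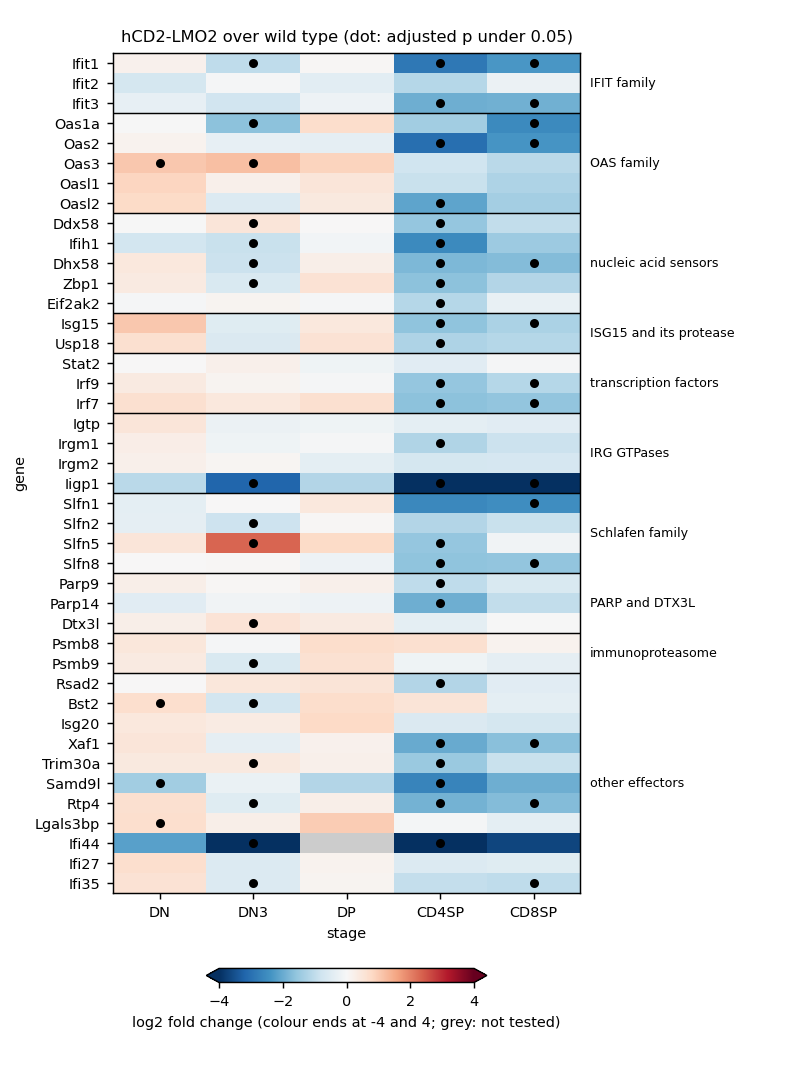
Log2 fold change of hCD2-LMO2 over wild type for 42 interferon-stimulated genes (rows, grouped by role) at 5 stages (columns), with a dot where the adjusted p is under 0.05; colours end at -4 and 4, and grey marks a gene that was not tested. DN3 shows 12 dots on lower and 5 on higher genes, CD4SP 25 and CD8SP 14, all on lower genes.

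The DN3 sort also differed between genotypes in its markers. Of 5 DN3 markers, Ptcra (log2 -3.11, SE 0.35), Hes1 (-0.77, SE 0.15) and Notch3 (-0.65, SE 0.18) fell, and Il2ra (0.34, SE 0.11) and Dtx1 (0.65, SE 0.17) rose. Mature thymocyte markers summed to 552 to 659 CPM in wild-type and 1342 to 1590 CPM in hCD2-LMO2 DN3 libraries, where Klf2 rose (log2 3.28, SE 0.41). Macrophage and granulocyte genes summed to 11.9 to 15.8 and 4.2 to 6.34 CPM, B cell genes to 24 to 33.5 and 8.49 to 13.4 CPM, and coreceptors to 21.8 to 39.2 and 49.2 to 132 CPM. The 5 plasmacytoid dendritic cell genes summed to 121 to 183 CPM in wild-type and 13.9 to 22.7 CPM in hCD2-LMO2 libraries, Ccr9 among them falling by 3.06 on the log2 scale (SE 0.23), while Siglech was at or under 0.0717 CPM in all 6. The part of these shifts in the ISG values was not tested.

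The genotype effect in CD4SP cells was then tested against that in DN3 cells, which share no library. It was lower for 22 of 42 members and higher for 2, where 15.1% of all genes were lower and 15.8% higher. Slfn5 had the largest gap of the lower ones, from 2.32 in DN3 to -1.54 in CD4SP cells (difference -3.93 on the log2 scale, SE 0.40, edgeR adjusted p = 0.00031). Ddx58 and Trim30a, like Slfn5, rose in DN3 and fell in CD4SP cells, with differences of -2.10 (SE 0.28) and -1.94 (SE 0.27). Bst2 and Ifi44 were the higher ones, and the value of Ifi44 (4.02, SE 0.72) rests on the 2 reads it had in hCD2-LMO2 DN3 cells. Of the 12 genes that fell in DN3, 7 also fell in CD4SP cells (58.3% of the DN3 list and 28.0% of the CD4SP list), a share close to the 59.5% of all members that fell in CD4SP cells. They were Ifi44, Iigp1, Ifit1, Ifih1, Dhx58, Rtp4 and Zbp1. Without hCD2-LMO2 CD4SP library 2, 25 members were lower and 2 higher, where 19.3% of all genes were lower and 21% higher. With hCD2-LMO2 CD4SP libraries 1 and 3 left out, library 2 alone remained in that group, so counts of that fit are not given. With no library left out, 51.1% of the calls over all genes were higher, and 62.1% with library size alone as scaling.

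In the DN population, 3 members rose and 1 fell, where 7.47% of all genes rose and 4.89% fell, so the members' shares (7.14% and 2.38%) were near or under the background. Lgals3bp, a secreted galectin-binding glycoprotein, was at 144, 143 and 159 CPM in the wild type and at 235, 242 and 255 CPM in hCD2-LMO2 (log2 0.67, SE 0.13, edgeR adjusted p = 0.018). Bst2, which fell in DN3 cells, rose here from 59.3, 57.2 and 51.7 to 93, 100 and 84.1 CPM (log2 0.68, SE 0.14). Oas3 was at 16.3, 21.7 and 28.3 CPM against 39.6, 48.2 and 55.1 CPM (log2 1.07, SE 0.23). These 3 genes were higher in every hCD2-LMO2 library. Samd9l, a growth-restricting antiviral factor, was at 81.1, 85.6 and 52.8 CPM against 17.3, 43.4 and 24.9 CPM (log2 -1.40, SE 0.36, adjusted p = 0.0486). The calls depended on single libraries, with 0 left without hCD2-LMO2 library 3, WT library 1 or WT library 2. In these fits 2.08%, 1.35% and 1.11% of all genes rose and 0.832%, 0.639% and 0.3% fell. Without WT library 3 there were 2 calls, where 4.47% of all genes rose and 2.48% fell. Without hCD2-LMO2 library 1 or 2 there were 7 and 9, where 5.3% and 13.5% rose and 3.73% and 11.1% fell. Library 2 of hCD2-LMO2 DN cells had an ISG median of 5.29, against 4.63 and 4.74 in the others. Mature thymocyte markers summed to 506 to 603 CPM in wild-type and 999 to 1167 CPM in hCD2-LMO2 DN libraries, and NK cell genes to 92.4 to 98.4 and 115 to 243 CPM. Plasmacytoid dendritic cell genes, Ccr9 among them, summed to 136 to 224 and 44.8 to 80 CPM. That sum was 1342 to 1504 CPM in wild-type DP cells, so it does not measure dendritic cells alone. Coreceptors summed to 182 to 299 and 33.6 to 111 CPM, and DP markers to 1959 to 2285 and 1423 to 1729 CPM. B cell genes summed to 140 to 299 and 26.2 to 224 CPM, which overlap. Erythroid genes reached 22003 CPM in wild-type library 3, against at most 2662 CPM in the other DN libraries. The part of these lists was not tested.

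In DP cells no member was called, as was no gene at all (0 of 41 members and 0 of 11649 genes, or 0%). By unadjusted p under 0.05 there were 9 members and 2450 genes, and DESeq2 called 3 members higher (Lgals3bp, Psmb9 and Slfn5), where it called 2.65% of genes higher and 2.54% lower. With library 3, whose Lmo2 was at a wild-type level, left out, Lgals3bp (log2 1.08), Psmb8 (0.84) and Slfn5 (0.80) rose and Samd9l fell by 2.18 on the log2 scale, where 4.77% of all genes rose and 2.83% fell. Lgals3bp was at 60.3, 47.9 and 48.9 CPM in wild-type DP cells and at 111, 111 and 97.5 CPM in hCD2-LMO2. Slfn5 was at 38.8, 27.8 and 33.3 CPM against 57.9, 58.3 and 54.1 CPM. Both genes were higher in all 3 hCD2-LMO2 libraries, library 3 included.

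DN1 cells held the ISGs at high levels in both genotypes. The ISG median was 6.32 in the 1 wild-type library and 6.35, 6.64 and 6.69 in the hCD2-LMO2 libraries, and DN1 was the highest of the 6 hCD2-LMO2 thymic groups for 39 of 42 genes. No member was called between genotypes (0%, as for all genes), with 0 members and 157 of 14845 genes at an unadjusted p under 0.05, and DESeq2 called 0 members. The wild-type library stands alone and was assumed to vary as the other groups do. Lmo2 was at 31.7 CPM in it and at 36.4 to 45.1 CPM in hCD2-LMO2 DN1 cells, ranges that lie close together. Ifi44 and Iigp1 were at 11.2 and 26.7 CPM in the wild-type library and at 4.58 to 8.31 and 11.4 to 23.4 CPM in hCD2-LMO2. The DN1 libraries also carried B cell genes (1670 and 698 to 1073 CPM summed) and Siglech (74.1 and 89 to 120 CPM), whose part in these levels was not tested.

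Splenic T cells of hCD2-LMO2 mice had higher ISG levels than the thymic single-positive cells of the same genotype. In splenic CD4 cells 22 of 42 members were higher than in CD4SP cells (52.4%) and 0 lower, where 12.5% of all genes were higher and 12% lower. Iigp1 was at 28.2, 32.2 and 19.4 CPM in splenic CD4 cells (log2 3.98, SE 0.62, edgeR adjusted p = 0.011), and at 0.523 to 2.51 CPM in CD4SP cells. Oas1a was at 33.4, 36.1 and 36.9 CPM against 3.25 to 9.57 CPM (log2 2.66, SE 0.47). Ifi44 was at 0.769, 1.46 and 1.3 CPM against 0.374 to 0.513 CPM and did not pass. For all 3 genes the splenic libraries lay above the thymic ones, and those of Ifi44 stayed below the 6.09 to 13.7 CPM of wild-type CD4SP cells. Leaving out splenic CD4 library 1, 2 or 3 left 1, 2 and 11 calls, where 1.58%, 2.54% and 4.79% of all genes were higher. Leaving out hCD2-LMO2 CD4SP library 1 or 2 left 13 and 17, where 6.56% and 9.67% of all genes were higher. With the replicate number as a block there were 14, where 8.14% of all genes were higher.

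In splenic CD8 cells 26 of 42 members were higher than in hCD2-LMO2 CD8SP cells (61.9%) and 0 lower, where 17.2% of all genes were higher and 20.1% lower. Iigp1 was at 19.6, 9.39 and 11 CPM against 0.266 to 0.475 CPM (log2 5.04, SE 0.51, edgeR adjusted p = 0.0012), Oas1a rose by log2 3.50 (SE 0.42) and Slfn1 by 3.30 (SE 0.39). With splenic CD8 library 1 and CD8SP library 3 left out, 28 members were higher, 24 of the 26 among them, where 23.7% of all genes were higher. No member passed between splenic CD8 and CD4 cells (0 of 42, where 0.105% of all genes were higher and 0.386% lower). By unadjusted p under 0.05 there were 6 members and 1957 of 12429 genes. DESeq2 called 3 members (Samd9l, Isg20 and Slfn2), where it called 2.76% of all genes higher and 3.99% lower. Without splenic CD8 library 1 edgeR called 2 members higher and 4 lower, where 4.09% of all genes were higher and 6.1% lower. B cell genes summed to 618 to 2183 CPM in splenic CD4 and 641 to 4391 CPM in splenic CD8 libraries, against at most 63.3 CPM in hCD2-LMO2 single-positive thymocytes. Macrophage and granulocyte genes summed to 495 to 3235 CPM in splenic CD4 and 121 to 3142 CPM in splenic CD8 libraries, against at most 147 CPM in those thymocytes. Mature markers summed to 2365 to 2756 CPM in splenic CD4 against 437 to 1165 CPM in CD4SP libraries, and to 1748 to 4581 CPM in splenic CD8 against 452 to 567 CPM in CD8SP libraries. DP markers summed to at most 82.6 CPM in the spleen and to at least 1660 CPM in those thymocytes. Erythroid genes reached 59276 CPM in splenic CD4 library 3, against 1073 to 2342 CPM in the others. The part of these lists was not tested. Wild-type splenic T cells were not analysed here, so no genotype comparison was made in the spleen.

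The rest of the interferon pathway was read from lists that were also chosen with earlier results of these data known. Of the ligands with an entry, those of type I and III were at or under 0.156 CPM in every library. Ifng was at 5.93 to 9.26 CPM in DN1, 0.936 to 2.03 CPM in wild-type CD4SP and up to 17 CPM in splenic CD8 cells. Of 5 tested receptor genes, the interferon-γ receptor chain Ifngr1 rose (log2 1.96, SE 0.47) and Ifngr2 fell (-1.58, SE 0.16) in hCD2-LMO2 CD4SP cells. Ifnar1 was at 230 to 256 CPM in the wild type and 98.4 to 179 CPM in hCD2-LMO2 and did not pass. Over all genes, 15% rose and 11% fell in CD4SP cells. In DN3 cells Ifngr1 and Ifngr2 went the other way, with Ifngr1 lower (log2 -0.66, SE 0.17) and Ifngr2 (0.69, SE 0.12) and Ifnar2 (0.57, SE 0.10) higher. There, 22.2% of all genes fell and 23.4% rose.

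Among the kinases and STATs, Jak2 (log2 -1.14, SE 0.21) and Jak1 (-1.04, SE 0.30) fell in hCD2-LMO2 CD4SP cells, and Stat3, the STAT of interleukin-6 and interleukin-10 signalling, rose (0.86, SE 0.24). In DN3 cells Stat3 (log2 1.75, SE 0.12), Jak2 (0.60, SE 0.11), Jak1 (0.57, SE 0.15) and Tyk2 (0.31, SE 0.10) rose, and in the DN population Stat3 rose (1.55, SE 0.32). Among other IRF factors, Irf1 (log2 -0.95, SE 0.24) and Irf4 (-2.78, SE 0.67) fell in CD4SP cells. Irf2, a repressor of interferon-responsive promoters, rose (log2 0.70, SE 0.12) and Irf8 fell (-0.91, SE 0.16) in DN3 cells. Of 8 feedback inhibitors, in DN3 cells Socs3 (log2 -1.74, SE 0.12) and Socs1 (-1.20, SE 0.17) fell and 3 rose. Over all genes tested, 22.2% fell and 23.4% rose at that stage.

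Of the sensing adaptors and kinases, 3 of 9 tested fell in hCD2-LMO2 CD4SP cells, where 11% of all genes fell. They were Ikbke, the kinase that activates IRF3 and IRF7 (log2 -1.99, SE 0.32), Traf3 (-1.52, SE 0.23) and the RNA receptor Tlr7 (-2.91, SE 0.76). Tlr7 also fell in CD8SP cells (log2 -2.10, SE 0.38), as the single call of these pathway lists at that stage. Over all genes, 2.36% fell and 2.09% rose in CD8SP cells. In DN3 cells the adaptors Mavs (log2 0.70, SE 0.10) and Tmem173, which encodes STING (0.52, SE 0.14), rose.

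Response elements in the promoter windows were set beside these calls as description. Of the 25 genes that fell in hCD2-LMO2 CD4SP cells, 17 had a promoter in the table, of which 11 held the response element and 1 the STAT element. Of the other 16 members with a promoter, 6 held the response element and 8 the STAT element. Of the 5 genes that rose in DN3 cells, all with a promoter, 4 held the response element (Slfn5, Oas3, Ddx58 and Trim30a), and of 8 genes that fell there with a promoter, 4 did (Bst2, Ifih1, Ifit1 and Oas1a). Genes with and without the element thus appeared on both sides in DN3 cells.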

How the data were processed

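Reads per gene were deposited as counts, with FPKM values beside them in the same table, by the authors. Per the submitters' processing notes the tools were HISAT, Bowtie2, MACS2 and DESeq2 (no version or role stated), with builds mm9 and mm10. How strand was handled is not stated. Columns of 4 samples not analysed here were left out, as were the LMO2 binding peaks. Deposited FPKM values were used only to compare levels between genes.

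Counts entered edgeR 4.0.16 (R 4.3.3; TMM factors, genes kept by filterByExpr with a minimum count of 10 and a minimum total of 15, robust quasi-likelihood test) on the libraries of the groups compared, without covariates. The DN1 comparison, with 1 wild-type library, used a fit of all 40 libraries. P-values were adjusted by Benjamini-Hochberg over all genes tested, with a threshold of 0.05. The standard error (SE) of a log2 fold change is its size divided by the square root of F. Medians over members use log2(CPM + 0.5). The test was tried on simulated counts first. Alternatives were DESeq2 1.42.0, other scaling, no filter, a fit of all libraries, a replicate block, a term for a column suffix N of unstated meaning and leaving out libraries. Some genes of the marker and pathway lists are not reported here by name. The members, marker lists and pathway lists were chosen with earlier results of these data known. Values in every library are given for up to 8 called members per genotype comparison, those with the smallest adjusted p whose groups do not overlap, plus 1 for any role otherwise without one. Levels of other members were chosen for naming after their values were seen. Promoter stretches are RefSeq sequence of GRCm38.p6.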

Additional observations from a re-analysis of the deposited data

Results flagged for a closer look

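These members had a genotype effect (hCD2-LMO2 over wild type) that differed between CD4SP and DN3 cells by edgeR's interaction test at an adjusted p under 0.05. The values are the log2 effect in CD4SP cells minus that in DN3 cells. Among the IFIT and OAS families they were -1.92 for Ifit1, -2.77 for Oas2, -2.1 for Oas3 and -1.63 for Oasl2. Among the nucleic acid sensors they were -2.1 for Ddx58, -1.71 for Ifih1, -1.07 for Zbp1 and -1.29 for Eif2ak2, the kinase that shuts down translation. Signalling and modifier genes gave -1.15 for Isg15, -1.71 for Irf9 and -2.12 for Irf7. Irgm1 gave -1.09, Slfn5 -3.93 and Slfn8 -1.72. Of the PARP group, Parp9 gave -1.11, Parp14 -1.88 and Dtx3l -1.02. The other effectors gave -1.69 for Rsad2, -1.7 for Xaf1, -1.94 for Trim30a, -2.46 for Samd9l and -1.47 for Rtp4. Bst2 (1.2) and Ifi44 (4.02) went the other way, and the Ifi44 value depends on 2 reads in hCD2-LMO2 DN3 cells and on the prior count of the fit. Groups had at most 3 libraries, too few for a test of single outlying values, and libraries that stood apart are named with the results above.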

How the results depend on the processing

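None of the 35 genotype calls given by library turned its direction under any setting tried. For all other called members direction was checked only with RLE factors and library size alone, and none changed sign. Counts of called members moved beyond 1.5 times under these settings, with the cause not tested. In the fit of all 40 libraries DN3 gave 7, DP 2, CD8SP 23, WT CD8SP against CD4SP 14 and the splenic pair 2. Over all genes, that fit called 2.6% higher and 2.08% lower in DP. It called 3.41% and 4.43% in the splenic pair, and 14.8% and 9.06% in WT CD8SP against CD4SP. With DESeq2 DN gave 9, DP 3, CD8SP 27 and the splenic pair 3. In DN, DESeq2 called 12.2% of all genes higher and 8.79% lower. With the replicate block splenic CD4 against CD4SP gave 14. Shares for the other counts are given with the results above. Leaving out 1 library at a time gave ranges of 13 to 20 (DN3), 0 to 9 (DN), 0 to 4 (DP), 0 to 28 (CD4SP), 0 to 17 (CD8SP), 0 to 0 (DN1), 33 to 38 (WT DP against DN3), 35 to 40 (WT CD4SP against DP), 31 to 35 (WT CD8SP against DP), 14 to 28 (WT CD8SP against CD4SP), 1 to 20 (splenic CD4 against CD4SP), 21 to 27 (splenic CD8 against CD8SP), 0 to 6 (between splenic groups), 19 to 27 (CD4SP minus DN3 effect) and 0 to 1 (CD8SP minus CD4SP effect). On unscaled library sizes the ISG median was 4.75 in hCD2-LMO2 DN3 (4.71 scaled), 4.78 in WT DN (4.61) and 4.99 in WT DN3 (4.82). Library size alone moved the DN3 median of all genes by -0.13, made 37.3% of DN3 calls higher in place of 51.3%, and moved the CD4SP minus DN3 effect by 0.13 (62.1% against 51.1% higher) and WT DP against DN3 by -0.17. The response element was in 10 promoters on the sense strand only and in 8 with 2 more bases, against 17. Of the 35 genotype calls given by library, DESeq2 lost 0, RLE factors 1, library size 2, no filter 2, the fit of all libraries 4 and the block 1. The design text speaks of paired samples, but same-numbered libraries correlated at -0.02 to 0.22 in DN3, 0.08 to 0.19 in DN, -0.10 to 0.32 in DP, -0.04 to 0.03 in CD4SP and -0.10 to 0.59 in CD8SP, and correlated best with their own number in 3, 6, 4, 0 and 2 of 6 libraries, so they were not treated as paired. The replicate block gave 18, 4, 0, 19 and 18 calls at these stages and changed the count by over 1.5 times nowhere else than in splenic CD4. Over all genes it called 22.6%, 6.75%, 0%, 7.15% and 3.27% higher and 20.4%, 5.2%, 0%, 4.13% and 3.55% lower. A term for the suffix N could be estimated only in DP (0 calls) and CD8SP (11). In CD8SP it left 1.8% of all genes higher and 2.21% lower. The fits without library 3 of both CD8SP groups, without splenic CD8 library 1 and CD8SP library 3, and of the CD4SP minus DN3 effect without hCD2-LMO2 CD4SP libraries 1 and 3 were chosen after seeing the data.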
